A study of Mus musculus with 36 samples.

Results

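The genes described here encode the proteins of the cytosolic ribosome, and their mRNA was followed through early mouse B cell development and in cultured B cell progenitors. Members were chosen by name alone: symbols of the large (Rpl) and small (Rps) subunit proteins, the stalk proteins Rplp0, Rplp1 and Rplp2, and Rpsa, with a mean of 10 or more normalized counts across the 8 libraries of a table and without pseudogene names ending in -ps. In the table of sorted cells 88 of 46078 rows matched and 86 were kept. In the table of cultured Pax5-/- cells 83 of 89 matches were kept, and in the table of cultured wild-type and Sirt7-/- cells 83 of 86. Every member passed the filter for testing, among 17649, 13345 and 13651 genes tested. In the sorted table the large (60S) subunit has 49 members and the small (40S) subunit 37.

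The study asked how SIRT7, a NAD-dependent deacetylase, acts on B cell development through Pax5, the transcription factor that commits progenitors to the B lineage. Pro-B cells (IgM-CD43+) and pre-B cells (IgM-CD43-) were sorted by surface markers, these among them, and came from the bone marrow of 2 wild-type and 2 Sirt7-/- mice, the latter lacking exons 4 to 10 of Sirt7 in every tissue on the 129Sv background. Labels of the 2 stages share a number, such as KO.11, which was taken as the mouse. On this reading each mouse gave 1 library of each stage. Pax5-/- progenitors on the C57BL/6 background were grown on mitomycin-treated OP9 stromal cells with IL-7, SCF and FLT3-L and received by retrovirus an empty vector (EV), Pax5 WT, Pax5 K198Q (a mimic of the acetylated lysine) or Pax5 K198R (a mimic of the deacetylated residue). These cells are labelled as bone marrow, although the methods name fetal liver as their source. The last table holds wild-type cells that carried EV in culture, and cultured Sirt7-/- progenitors that carried EV, Pax5 WT or K198R. Each group had 2 libraries, from adult mice of both sexes or separate cultures, and 6 lists of Pax5 peaks from ChIP–seq (2 for each Pax5 form, in Pax5-/- cells) complete the data. The stage of the sorted libraries was read from their titles, since their cell type fields disagree with these.

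Genes that define the groups were checked first. Sirt7 was at 2692 and 2533 normalized counts in the wild-type pro-B libraries and at 363 and 366 in the Sirt7-/- ones, and at 5613 and 5219 against 1066 and 821 in pre-B libraries. Pax5 was at 2201 and 2103 normalized counts with EV in Pax5-/- cells, 6458 and 6152 with Pax5 WT, 8918 and 8963 with K198Q, and 21162 and 16610 with K198R, so the 3 forms were not expressed at the same level. Of the pro-B markers Kit, Dntt, Igll1, Vpreb1 and Spn all fell from pro-B to pre-B cells in both genotypes, and of the pre-B markers Il2ra, Cd2, Ms4a1 and Rag1 all rose. Il7r of the first list and Igkc of the second did not pass the test, and Igkc was at 234972 and 550267 normalized counts in wild-type pro-B and 215431 and 240298 in pre-B libraries. RNA of another cell type stood out in 1 mouse: the 6 erythroid markers summed to 48230 and 72883 normalized counts in the pro-B and pre-B libraries of Sirt7-/- replicate 2 and to between 5829 and 16303 in the other 6 sorted libraries. The most abundant of them was Hba-a1 in both libraries of that mouse (19328 and 22303). Counts, medians and ratios of the ribosomal protein genes that include this mouse are followed by their values without it.

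Ribosomal protein genes are among the most highly transcribed of a cell. Their mRNAs begin with a cytosine and a run of pyrimidines, the terminal oligopyrimidine (TOP) start, through which mTORC1 and the RNA-binding protein Larp1 set how much of them is translated. Myc raises their transcription together with that of the factors that build ribosomes. Growing, dividing cells such as early pro-B cells make many ribosomes, and the small resting pre-B cells that follow make fewer.

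The start sites of 10 members are shown because the TOP run is the feature these mRNAs are known for. Each window holds 15 bases on either side of an annotated RefSeq start (GRCm38.p6), written 5′ to 3′ on the coding strand, and capitals mark a pyrimidine run that opens with C within 5 bases of the start and holds at least 4 more pyrimidines.
Rps2 (chr17:24720048-24720077, plus strand): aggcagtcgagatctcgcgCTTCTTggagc
Rpl14 (chr9:120571502-120571531, plus strand): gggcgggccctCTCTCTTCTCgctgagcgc
Rps27 (chr3:90213634-90213663, minus strand): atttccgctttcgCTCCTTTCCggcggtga
Rps27l (chr9:66946071-66946100, plus strand, the first of 2 starts): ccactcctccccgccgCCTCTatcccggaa
Rpl22l1 (chr3:28805493-28805522, plus strand): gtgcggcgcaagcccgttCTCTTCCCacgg
Rps6 (chr4:86857353-86857382, minus strand): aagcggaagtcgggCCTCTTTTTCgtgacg
Rpsa (chr9:120127751-120127780, plus strand): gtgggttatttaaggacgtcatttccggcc
Rpl36a (chrX:134585639-134585668, plus strand): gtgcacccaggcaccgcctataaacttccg
Rps12 (chr10:23787195-23787224, minus strand): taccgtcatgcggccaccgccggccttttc
Rplp0 (chr5:115559452-115559481, plus strand): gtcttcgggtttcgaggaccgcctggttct
The first 6 windows hold such a run and the last 4 do not.
RefSeq promoter windows (250 bases before to 50 after the start) were matched for 61 of the 86 members. A TOP run by this rule was found in 29 of the 61 (47.5%), against 21.1% of the 26964 other genes of the table and 21.7% of its other protein-coding genes. The letters CCGGAAG, which belong to the core that ETS factors and GABP bind, were found on either strand in 25 members (41.0%) against 9.86% of the other genes and 13.2% of the other coding genes. AAGATGG was found in 16.4% against 7.26%, CACGTG (the E-box that Myc binds) in 9.84% against 8.09%, and TATAAA in 11.5% against 15.7%. The window letters differ from an experimentally mapped start where the annotation is off by a few bases, and no match says only that the letters are not in the window.

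Together the members took 2.73% to 4.37% of the normalized counts in the sorted libraries. In wild-type cells their summed share was 3.91% and 3.97% in pro-B and 2.95% and 2.73% in pre-B libraries. In Sirt7-/- cells it was 4.18% and 4.37% in pro-B and 3.35% and 3.19% in pre-B libraries. Every pre-B library thus lay below every pro-B library. The ratio of the means, pre-B over pro-B, was 0.720 in wild-type and 0.763 in Sirt7-/- mice. The Sirt7-/- libraries lay above the wild-type libraries of the same stage, with a ratio of 1.09 in pro-B and 1.15 in pre-B cells, and the groups did not overlap. Without the mouse with the haemoglobin RNA these 3 ratios were 0.800 (pre-B over pro-B in Sirt7-/-), 1.06 and 1.18. Both subunits contributed: the large subunit genes went from 2.14% to 1.57% and the small subunit genes from 1.80% to 1.27% of the counts in wild-type mice. A share in bulk RNA cannot separate fewer ribosomal protein transcripts per cell from a change in which cells the gate holds.

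In culture the shares were higher, between 8.02% and 8.87% in Pax5-/- cells and between 6.03% and 6.47% in the last table. The tables were normalized separately, and genes named mt-, which took 6.54% to 7.35% of the sorted counts, are rows of the sorted table alone, so shares are compared within a table only. In Pax5-/- cells the share was 8.87% and 8.46% with EV, 8.35% and 8.73% with Pax5 WT, 8.60% and 8.17% with K198Q and 8.02% and 8.32% with K198R. K198R was the only form with both libraries below both EV libraries (ratio 0.943). The share in cultured Sirt7-/- cells was 6.24% and 6.47% with EV, 6.27% and 6.39% with Pax5 WT and 6.23% and 6.16% with K198R. The K198R libraries again lay below both EV libraries (ratio 0.975), replicate 1 by a narrow gap. Wild-type cells with EV had 6.03% and 6.37%, which overlapped the Sirt7-/- EV libraries. With the pseudogene rows (-ps) added to the share, Sirt7-/- K198R replicate 1 (6.7084%) lay above Sirt7-/- EV replicate 1 (6.7076%), so these groups overlapped.

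**Figure D1:**
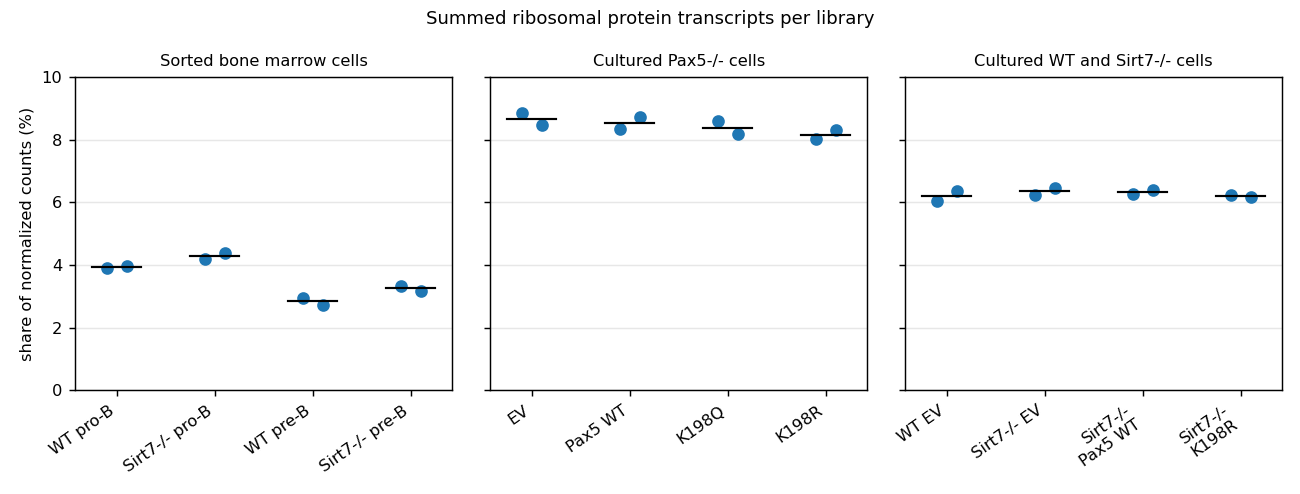
Summed share of the ribosomal protein genes in the normalized counts (%, y axis) of each of the 24 RNA libraries (points), with the mean of each group (bar), in 1 panel for each table. Sorted pre-B libraries lie between 2.73% and 3.35%, below the sorted pro-B libraries, and groups within a cultured table lie close together.

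Single members differed widely in level. In sorted cells the mean over the 8 libraries ran from 14.0 (Rpl3l) to 102936 normalized counts (Rpsa), with a median of 17672, and 76 of 86 members were above 5000. Per kilobase of the principal transcript the highest levels were those of Rps26 (124891 normalized counts per kb), a small subunit protein near the mRNA exit, Rplp1 (121701), one of the acidic proteins of the stalk that recruits elongation factors, and Rps27 (91990), a zinc-finger protein of the small subunit. The lowest per length were Rpl3l, the paralog of Rpl3 known from striated muscle, at 10.2 per kb, and Rps4l, annotated as a pseudogene, at 162 per kb. Rps12l2 (mean 15.2 normalized counts) was not found in the annotation. Rpl39l and Rpl10l, paralogs known from testis, stayed under the minimum (means of 2.92 and 0.49). In Pax5-/- cells the highest per length were Rpl23a, Rps2 and Rps18 (81677, 78702 and 71834 per kb), and in the last table Rps4x, Rplp1 and Rps2 (75463, 71603 and 56675 per kb).

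Mean levels of some members differed widely between the tables, which were normalized separately, and 3 of them, chosen after their values were seen, are given as values with no comparison. Rps27 was at a mean of 31737 normalized counts in the sorted table, 153 in the Pax5-/- table and 4382 in the last, and Rps3a3, annotated as a pseudogene, at 14002, 38.0 and 10619. Rps13 was at 13429, 16269 and 1190. Ribosomal protein genes have many processed copies with near-identical sequence, among which reads can be divided in different ways, so the levels of these genes and of Rps12l1, Rps3a2, Rps4l, Rpl6l and Rpl32l (all annotated as pseudogenes) are uncertain. Rows named as pseudogenes with -ps, which are not members, took 0.0961% to 0.182% of the sorted counts.

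The median change of the ribosomal protein genes from the pro-B to the pre-B stage was below 0 in both genotypes. In wild-type mice 56 of 86 members were lower in pre-B cells and 1 was higher at an adjusted p under 0.05, from limma with Benjamini-Hochberg adjustment over all 17649 genes. Of all genes tested 40.2% changed, 22% lower and 18.1% higher, against 65.1% of the members lower. Their median log2 fold change was -0.41, a median fold of 0.752, against -0.04 for all genes. The quartiles of the members were -0.55 and -0.23. The fall took in both subunits, with 30 of 49 large and 26 of 37 small subunit genes lower and medians of -0.40 and -0.42. Without pro-B replicate 2 of the wild type the number called was 31 (background 26.6%), and without pre-B replicate 2 it was 37 (background 29.7%).

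Among Sirt7-/- mice 41 members were lower and 1 was higher, where 35.7% of all genes changed, 19.2% lower and 16.5% higher. The median of the members was -0.31, a median fold of 0.806, and 24 of 49 large and 17 of 37 small subunit genes were lower. The count fell when libraries were left out. Without Sirt7-/- pro-B replicate 2, from the mouse with the high haemoglobin RNA, it was 18 (background 21%), and without pre-B replicate 2 of that mouse it was 25 (background 33.1%). Without both libraries of that mouse it was 10 (background 20.5%), and without both of the other Sirt7-/- mouse it was 8 (background 8.94%), all of them lower. These last fits leave 1 Sirt7-/- library a stage, which is assumed to vary like the wild-type libraries. With no variance trend 22 members were called (background 30.5%) and with only these groups in the fit 27 (background 26.5%). When that first mouse was left out 11.6% of the members were lower, where 11.2% of all genes were, so the share of members called lower was near that of all genes. The median of the members was then -0.23, a median fold of 0.854, and 71 of 86 were below 0, as were 51.2% of all genes. Those called were 5 large and 5 small subunit genes. Of the 56 members lower in wild-type mice 39 were also lower in Sirt7-/- mice, which is 69.6% of the wild-type and 95.1% of the Sirt7-/- list. Of all genes lower in wild-type mice 73.8% were also lower in Sirt7-/- mice, and these were 85% of all genes lower in Sirt7-/- mice. With that mouse left out 10 of the 56 (17.9%) were lower in both, against 43.4% of all genes lower in wild-type mice. The 2 comparisons share no library, but both were tested in 1 fit that uses the same variance estimate of each gene.

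The same order was seen mouse by mouse. The median difference of the members, pre-B minus pro-B on the log2 scale, was -0.31 and -0.47 in the wild-type mice and -0.23 and -0.37 in the Sirt7-/- mice, the last being the mouse with the haemoglobin RNA. Between 71 and 84 of the 86 members were lower in pre-B cells of a given mouse. In all 4 mice 65 members (75.6%) were lower and 2 were higher, where 34.9% of all genes tested were lower and 31.2% were higher in all 4.

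**Figure D2:**
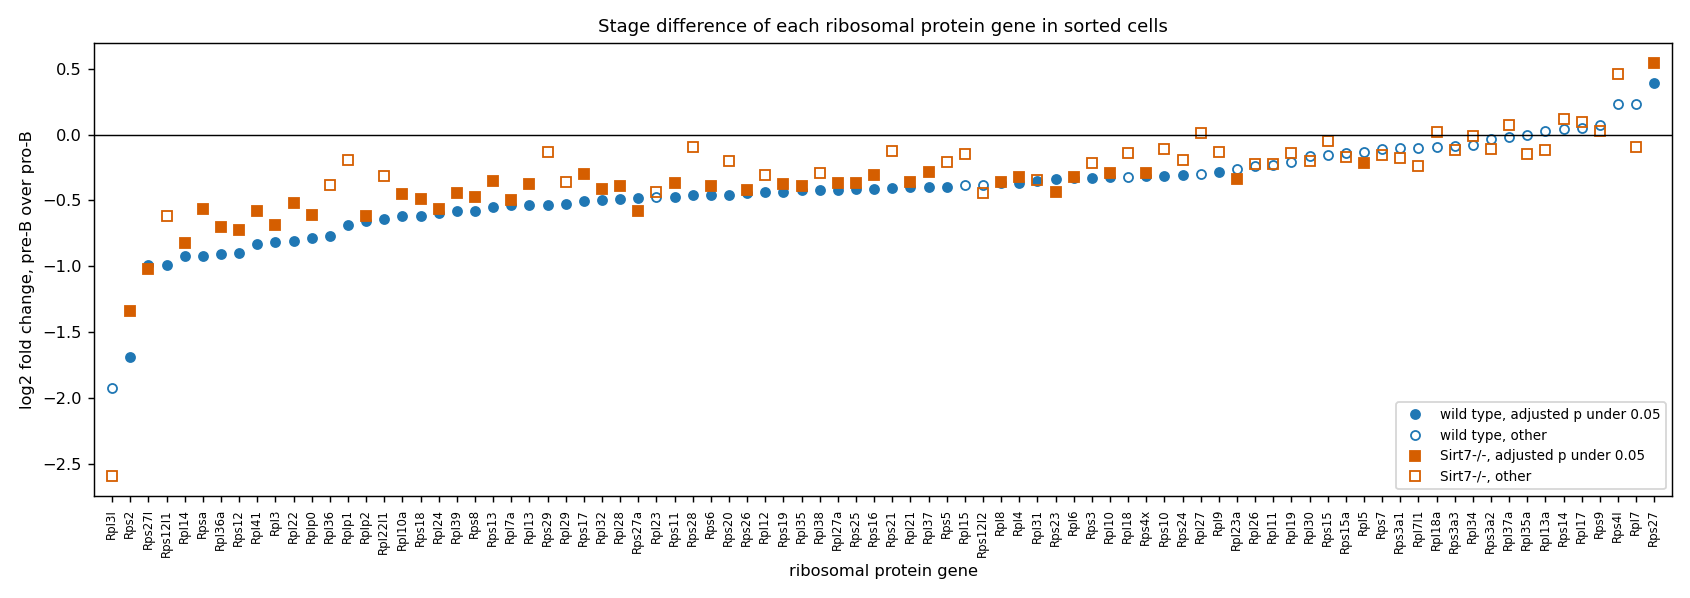
Log2 fold change of pre-B over pro-B cells (y axis) for each of the 86 ribosomal protein genes (x axis, ordered by the wild-type value) in wild-type (circles) and Sirt7-/- (squares) mice, 2 libraries a group, with filled symbols for an adjusted p under 0.05. Nearly all genes lie below 0, Rps2 stands at -1.69 and -1.34, and Rps27 is the one gene with filled symbols above 0.

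Rps2, a small subunit protein at the mRNA entry channel, fell the most among the members called in both genotypes. It was at 36530 and 36742 normalized counts in wild-type pro-B and 12794 and 10050 in wild-type pre-B libraries, and at 42512 and 38236 against 15633 and 16235 in Sirt7-/- libraries. All pre-B libraries lay far below all pro-B libraries. The log2 fold change was -1.69 ± 0.12 (SE, adjusted p = 2.05e-04 by limma) in wild-type and -1.34 ± 0.12 (adjusted p = 5.81e-04 by limma) in Sirt7-/- mice.

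Rpsa, the laminin receptor precursor that sits on the small subunit and had the highest mean count of all members, was at 126638 and 122253 in wild-type pro-B and 68586 and 63125 in pre-B libraries. In Sirt7-/- mice it was at 133063 and 131027 against 91714 and 87081. Neither stage overlapped the other. The log2 fold changes were -0.92 ± 0.07 and -0.56 ± 0.07 (adjusted p = 2.63e-04 and 0.00188 by limma). Rpl14, a large subunit protein, fell from 18400 and 19110 to 10249 and 9519 in wild-type mice and from 20209 and 21940 to 11614 and 12152 in Sirt7-/- mice, with log2 fold changes of -0.92 and -0.83.

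The stalk proteins fell together in wild-type mice. Rplp0, the base of the stalk, changed by -0.79 ± 0.06, Rplp1 by -0.69 ± 0.13 and Rplp2 by -0.65 ± 0.11 on the log2 scale (adjusted p = 2.94e-04, 0.00543 and 0.00365 by limma). In Sirt7-/- mice Rplp0 (-0.61) and Rplp2 (-0.62) fell, while Rplp1, at 73844 and 68574 in pro-B and 64932 and 59512 in pre-B libraries, changed by -0.20 with an adjusted p of 0.274 by limma. Its stage by genotype difference of 0.49 ± 0.18 did not pass either (adjusted p = 0.885 by limma).

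Paralog pairs did not all move alike. Rpl22, an RNA-binding large subunit protein whose loss is known to block T cell development, fell from 6007 and 6444 to 3612 and 3475 in wild-type mice (log2 fold change -0.81 ± 0.10), and its paralog Rpl22l1 from 899 and 988 to 544 and 668 (-0.64 ± 0.15, adjusted p = 0.0133 by limma). The latter was not called without pro-B replicate 2 or without pre-B replicate 1 of the wild type. Without Sirt7, Rpl22 fell by 0.52 on the log2 scale and Rpl22l1 changed by -0.32 without passing the test (adjusted p = 0.142 by limma).

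Rps27 and its paralog Rps27l, a target of p53, went in opposite directions. Rps27 was at 26083 and 25796 in wild-type pro-B and 36926 and 31316 in pre-B libraries, and at 26759 and 27725 against 41018 and 38270 in Sirt7-/- libraries. It rose by 0.39 ± 0.09 and 0.54 ± 0.09 on the log2 scale (adjusted p = 0.0159 and 0.00552 by limma), and its pre-B libraries lay above its pro-B libraries. The wild-type call was lost without either pro-B library, without pre-B replicate 1 and with quantile normalization, all with the same sign, and the Sirt7-/- call was lost without either Sirt7-/- mouse. Rps27l was at 786 and 882 in wild-type pro-B and 368 and 476 in pre-B libraries, and at 967 and 1149 against 479 and 565 in Sirt7-/- libraries. It fell by 0.99 and by 1.02 on the log2 scale (adjusted p = 0.00571 and 0.00652 by limma), and no stage overlapped the other.

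**Figure D3:**
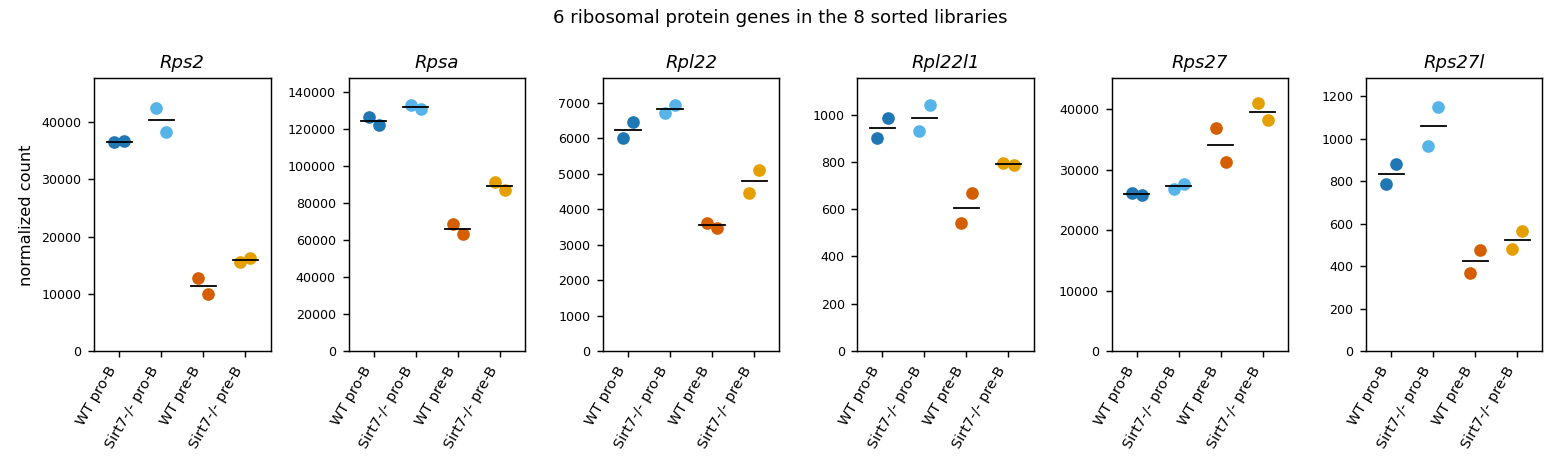
Normalized counts (y axis, from 0) of Rps2, Rpsa, Rpl22, Rpl22l1, Rps27 and Rps27l in the 8 sorted libraries (points), grouped by genotype and stage, with the mean of each group (bar). Rps27 is higher at the pre-B stage and the other genes are lower.

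Other members fixed by name were mostly lower in wild-type pre-B cells. Rps6, the small subunit protein that S6 kinases phosphorylate (log2 fold change -0.46), Rps19, mutated in Diamond-Blackfan anaemia (-0.43), Rps27a, made as a fusion with ubiquitin (-0.49), Rpl3, which lines the peptidyl transferase centre (-0.81), Rpl39 (-0.58), Rpl41, the smallest of the proteins (-0.83), Rpl38, known for the translation of Hox mRNAs (-0.42), and Rpl10, one of the last proteins to join the large subunit (-0.32), all passed the test. In Sirt7-/- mice all of these but Rpl38 (-0.29) passed it too. Rpl5 and Rpl11, which bind Mdm2 when ribosome assembly stalls, changed by -0.14 and -0.23 in wild-type mice without passing the test, and in Sirt7-/- mice Rpl5 (-0.22, adjusted p = 0.0405 by limma) passed and Rpl11 (-0.22) did not. Of the named members lower in Sirt7-/- mice, Rps2, Rpsa, Rpl14, Rplp0, Rpl22, Rps27a and Rpl3 were also called without the mouse with the haemoglobin RNA, while Rplp2, Rps27l, Rps6, Rps19, Rpl39, Rpl41, Rpl10 and Rpl5 kept their sign and did not pass. Without the other Sirt7-/- mouse Rps2, Rpl14, Rplp0, Rplp2 and Rpl3 were called and the rest of these kept their sign. Rpl13a, at 31501 and 32174 in pro-B and 34921 and 30258 in pre-B libraries of the wild type, overlapped between stages in that genotype, as did Rpl7 and its relative Rpl7l1. Rpl7 was at 20868 and 29445 in the wild-type pro-B libraries, a wider gap than between any of its other replicates.

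Rps12l1, annotated as a pseudogene, fell by 0.99 on the log2 scale in wild-type mice, from 218 and 247 to 121 and 112 normalized counts, and was not called without pro-B replicate 2. Rpl3l had the most negative fitted values (-1.92 in wild-type and -2.59 in Sirt7-/- mice) at counts between 0 and 31.4, with a standard error of 1.66, and did not pass the test.

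The change was also split by the TOP run and by CCGGAAG. In wild-type mice the median was -0.42 for the 29 members with a TOP run and -0.41 for the 32 without, and -0.42 for the 25 with CCGGAAG and -0.39 for the 36 without. These are medians over genes and were not tested.

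Other genes of protein synthesis were counted at the same step, where 22% of all genes were lower and 18.1% higher in wild-type mice. In Sirt7-/- mice 19.2% of all genes were lower and 16.5% higher. Of 30 genes of ribosome biogenesis and rRNA synthesis 18 were lower and 2 higher at the wild-type pre-B stage (median -0.69), and 21 were lower and 1 higher in Sirt7-/- pre-B cells. Among them were Fbl, the methyltransferase of box C/D snoRNPs (-1.53 and -1.27), Ncl (nucleolin, -1.49 and -1.33), Rrp12 (-1.64 and -1.35) and Polr1b, a subunit of RNA polymerase I (-1.41 and -1.19). Taf1c, a subunit of its initiation factor, rose in both (0.59 and 0.53). Of 11 chaperones and import factors of ribosomal proteins 5 were lower and 0 higher in each genotype, and these were Grwd1, Heatr3, Ipo5, Ipo7 and Rrs1. Of 20 translation factors and other TOP mRNAs 12 were lower in each genotype and 1, Eif3f, was higher in wild-type cells. Npm1 (-1.36 in both), Slc25a5 (-0.96 and -0.94) and Eef1g (-0.84 and -0.80) were lower, Eef1a1, the most abundant elongation factor, was lower by less (-0.30 and -0.34), and Eef2 (0.00 and 0.07) and Tpt1 (0.18 and 0.05) did not pass the test. Without the mouse with the haemoglobin RNA the Sirt7-/- medians were -0.61 for the 30, -0.89 for the 11 and -0.33 for the 20 genes. With all libraries they were -0.64, -0.69 and -0.37. The fit without that mouse leaves 1 Sirt7-/- library a stage. It called fewer of the 30 and of the 20 genes, and Taf1c and Eef1a1 were not among them.

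Among the ribosomal proteins with names outside the rule, Fau, made as a fusion with a ubiquitin-like protein, rose (0.39 and 0.44) and Rpl36al fell (-0.54 and -0.45), and neither Sirt7-/- value passed without the mouse with the haemoglobin RNA (adjusted p = 0.0821 and 0.164 by limma).

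Upstream, Myc fell from 7753 and 5040 to 552 and 449 normalized counts in wild-type mice (log2 fold change -3.65) and from 5481 and 7340 to 983 and 1902 in Sirt7-/- mice (-2.21). In wild-type cells, where 22% of all genes were lower and 18.1% higher, 3 of the 10 genes of the Myc network were lower and 4 higher. Those that rose were Mnt, Mxd1, Mxd4 and Mxi1, which compete with Myc for Max, and Mxd3 and Mycn fell with Myc. Of 14 genes of mTORC1 and TOP regulation 2 were lower and 2 higher, with Larp1 at -1.06 and -0.81 and Mtor at 0.19, not past the test, and 0.38, which did not pass without the mouse with the haemoglobin RNA (adjusted p = 0.102 by limma). Of 9 tested p53 targets of ribosomal stress 3 rose and 2 fell in wild-type cells, with Mdm2 at 0.66 and Cdkn1a at -2.15. Of 8 tested genes of ribosome rescue 1 rose and 2, Abce1 and Pelo, fell. The shares of all genes given for the Myc network hold for these lists too.

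The stages also differed in proliferation and in traces of other cells. All 10 proliferation genes were lower in pre-B cells in both genotypes (9 in Sirt7-/- mice without the mouse with the haemoglobin RNA), with medians of -1.73 and -1.15, and Mki67 went from 122094 and 128260 to 31857 and 48299 normalized counts in wild-type mice. The 6 myeloid markers, led by S100a9, summed to 28446 and 19995 in wild-type pro-B and 6206 and 5722 in pre-B libraries, and to 22603 and 5446 against 3147 and 1520 in Sirt7-/- libraries. The 4 plasma cell markers, led by Jchain, summed to 25866 and 65131 against 8960 and 9555, and to 43778 and 42297 against 9795 and 8610. The 6 T cell markers summed to between 5391 and 5986 in pro-B and between 2978 and 3501 in pre-B libraries, mostly from Lck, with Cd3e at or under 44.8 in pro-B and at 0 in all pre-B libraries. The stroma markers summed to at most 274 in any sorted library. With all libraries erythroid markers did not pass the test in either genotype. Without the mouse with the haemoglobin RNA their median stage change in Sirt7-/- mice went from 0.21 to 0.04. That of the myeloid markers went from -2.14 to -2.62 and that of the stroma markers from -1.88 to -3.86. The part of these cells and of the cell cycle in the fall of the ribosomal protein genes was not tested.

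Between genotypes at the same stage limma and edgeR called no member, and nearly all members lay on the same side. In Sirt7-/- pro-B cells the median log2 fold change over wild type was 0.12 (0.00 for all genes), and 82 of 86 members were above 0. The test called 0 members and 11 of 17649 genes (0.0623%), and 4 members (4.65%) had an unadjusted p under 0.05, against 5.94% of all genes. In 48 members both Sirt7-/- libraries lay above both wild-type libraries and in 0 below, where 19.5% of all genes lay above and 19.8% below. DESeq2 and edgeR on the whole reads also called 0 members. Without the mouse with the haemoglobin RNA the median was 0.06, 1 member had an unadjusted p under 0.05 (4.91% of all genes), and the remaining Sirt7-/- library lay above both of the wild type in 50 members and below in 4, where 33.5% and 33.7% of all genes did. In the same comparison all 6 erythroid markers were above 0 (median 0.56) and 0 of 6 myeloid markers were (median -1.15), none past the test, and their part in the difference was not tested.

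In pre-B cells the median was 0.21 (0.02 for all genes), and again 82 of 86 were above 0. limma called 0 members and 15 genes in all (0.085%), 35 members (40.7%) had an unadjusted p under 0.05, all of them higher, against 13.6% of all genes, and in 68 members both Sirt7-/- libraries lay above both of the wild type, where 22.1% of all genes did, and in 0 members below (19.4%). edgeR on the whole reads called 0 members. DESeq2 on the whole reads called 9 of the 84 members it gave an adjusted p, all higher, where it called 4.88% of all genes, and 2 of 84 without the mouse with the haemoglobin RNA, where it called 1.79%. Large subunit genes had a median of 0.20 and small subunit genes of 0.24. Rplp1 (0.57 ± 0.13, adjusted p = 0.157 by limma), Rps29 (0.57 ± 0.10), Rps2 (0.49 ± 0.12), Rpsa (0.44 ± 0.07, adjusted p = 0.112 by limma) and Rpl22 (0.43 ± 0.10) had both Sirt7-/- libraries above both of the wild type. Rps4l, annotated as a pseudogene, had the largest value (0.74 ± 0.27). Rpl13a (0.02) and Rpl7 (-0.01) overlapped between genotypes.

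Other lists differed between the genotypes at the pre-B stage without passing the test in any gene. All 10 proliferation genes were above 0, with a median of 0.55, the 6 erythroid genes had a median of 1.89, the 6 myeloid genes of -1.44, and 5 of 6 pro-B markers were above 0. Dntt, the polymerase of pro-B cells, was at 423 and 3838 normalized counts in Sirt7-/- and 131 and 157 in wild-type pre-B libraries. Their part in the difference of the ribosomal protein genes was not tested. Without the mouse with the haemoglobin RNA, limma called 0 members, 26 (30.2%) had an unadjusted p under 0.05 against 9.93% of all genes, the median was 0.21, and the remaining library lay above both of the wild type in 76 members and below in 0, where 36.5% and 33.1% of all genes did. Without the other Sirt7-/- mouse 13 members (15.1%) had an unadjusted p under 0.05 against 16.1% of all genes, with a median of 0.19.

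Whether the fall from pro-B to pre-B cells differed between genotypes was tested with the interaction term. The median of the members was 0.10 (0.03 for all genes), and 68 of 86 were above 0, as were 54.1% of all genes. The test called 0 members and 1 gene in all (0.00567%), and 3 members had an unadjusted p under 0.05 (3.49%, against 5.43% of all genes). edgeR and DESeq2 called 0 members. Without the mouse with the haemoglobin RNA the median was 0.17 and 2 members had an unadjusted p under 0.05 (5.05% of all genes), and without the other Sirt7-/- mouse the median was 0.01, with 44 of 86 above 0 and 0 members at an unadjusted p under 0.05 (7.68% of all genes). A difference between the genotypes in the size of the fall was therefore not detectable for any single member with 2 mice a group.

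In Pax5-/- cells the return of Pax5 moved these genes little. Against EV the members had a median log2 fold change of -0.04 with Pax5 WT, -0.08 with K198Q and -0.07 with K198R, where the medians of all genes were 0.00, -0.01 and 0.01. Below 0 were 68, 74 and 62 of the 83 members. The number called was 0 with Pax5 WT (background 3.25%), 0 with K198Q (background 0.922%) and 1 with K198R (background 9.92%), and 0, 1 and 7 members had an unadjusted p under 0.05, all lower, where 14.4%, 7.86% and 22.9% of all genes had one in either direction. Both libraries with the form lay below both EV libraries in 15, 30 and 30 members and above in 1, 2 and 1, where 21.3%, 18.1% and 23.2% of all genes lay below and 21.3%, 16.1% and 23.5% above. The 3 comparisons share the EV libraries. Between the forms no member was called (K198Q against Pax5 WT, background 0.0225%, 0 with an unadjusted p under 0.05 against 3.46% of all genes; K198R against Pax5 WT, background 2.87%, 4 with an unadjusted p under 0.05 against 12.7% of all genes). With the replicate number as a block, 5 members were called for K198R over EV (background 21.2%) and 2 for K198R over Pax5 WT (background 7.52%), although no label says that a number marks a shared day. For comparison, all 5 B lineage genes rose with Pax5 WT and with K198R, Cd79a by 1.90 and by 2.61 on the log2 scale.

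The member called was Rpl3l. It was at 94.6 and 98.6 normalized counts with EV, 76.1 and 79.4 with Pax5 WT, 101 and 70.2 with K198Q and 36.3 and 38.3 with K198R. The K198R libraries lay below all others. The log2 fold change over EV was -1.35 ± 0.27 (adjusted p = 0.0194 by limma), and the call was lost without either EV library, without K198R replicate 2 and with only these groups in the fit. Against Pax5 WT the value was -1.04 ± 0.27 (adjusted p = 0.109 by limma). Rpl3, at 79302 and 75840 with EV and 65682 and 79627 with K198R, overlapped (-0.10 ± 0.12). Rps27l, at 2878 and 3529 with EV and 2268 and 2453 with K198R, had the next most negative value, -0.43 ± 0.12 (adjusted p = 0.0604 by limma).

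Among the other named members Rpl22 (0.05, -0.01 and 0.03 for Pax5 WT, K198Q and K198R over EV), Rps2 (0.11, 0.01 and 0.14), Rpsa (-0.05, -0.12 and -0.04) and Rplp0 (-0.03, -0.04 and 0.01) stayed within 0.15 of 0 on the log2 scale. Rpl13a was at 62607 and 58341 with EV and 52246 and 49021 with K198R (-0.26 ± 0.10, adjusted p = 0.185 by limma). Of the 30 genes of ribosome biogenesis and of the 20 translation factors and other TOP mRNAs 0 were called with any form. Myc changed by 0.15, 0.17 and 0.21 and did not pass the test. Heatr3 and Aamp, of the chaperone list, and Mycn and Mxd4 were lower with K198R.

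In cultured Sirt7-/- cells with EV the members were at a median of 0.02 over wild-type cells with EV (-0.01 for all genes), with 49 above and 34 below 0. No member was called (background 0.557%), and 2 had an unadjusted p under 0.05 (2.41%, against 9.68% of all genes), Rpl31 higher and Rpl15 lower. Both Sirt7-/- libraries lay above both wild-type libraries in 10 members and below in 9, where 17.4% and 17.2% of all genes did so. With Pax5 WT over EV in Sirt7-/- cells the median was -0.06 (background 0.0366%), and with K198R -0.07 (background 4.83%), and 0 members were called in either, with 2 and 6 members at an unadjusted p under 0.05 (2.41% and 7.23%, against 9.91% and 18.4% of all genes). With the replicate number as a block, 1 member was called with K198R (background 11.6%). Both libraries with the form lay below both EV libraries in 31 and 35 of the 83 members, where 19.7% and 24.4% of all genes did, and above in 7 and 3 (19.1% and 25.2%), and the 2 comparisons share the EV libraries. Rpl3l was at 45.0 and 35.8 with EV, 72.0 and 64.6 with Pax5 WT and 79.5 and 89.1 with K198R, and its values of 0.75 ± 0.37 and 1.05 ± 0.37 did not pass the test (adjusted p = 0.575 and 0.175 by limma). Rps2 (0.06 and 0.02), Rpsa (0.12 and 0.07) and Rpl22 (-0.06 and -0.16) overlapped with EV or lay close to it. Of the biogenesis and translation factor lists 0 genes were called.

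Markers of other cells were also summed in the cultures. The 5 erythroid markers with a row summed to at most 83.9 normalized counts in Pax5-/- libraries and the 2 with a row in the last table to at most 5.93, and the myeloid markers to at most 297 and 169. T cell markers summed to between 1981 and 3197 in Pax5-/- libraries, mostly Lck, and between 379 and 3131 in the last table, mostly Lck in the wild-type and mostly Thy1 in the Sirt7-/- libraries. The stroma markers, led by Col1a2, summed to between 562 and 1635 in Pax5-/- libraries and between 2060 and 5943 in the last table, where the highest library was Sirt7-/- with Pax5 WT replicate 2. Dcn was at 0 in all Pax5-/- libraries and at or under 7.80 in the last table. Plasma cell markers, nearly all Jchain, were at 76369 and 74259 with EV and 39073 and 31224 with K198R in Pax5-/- cells. Their part in the results was not tested.

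**Figure D4:**
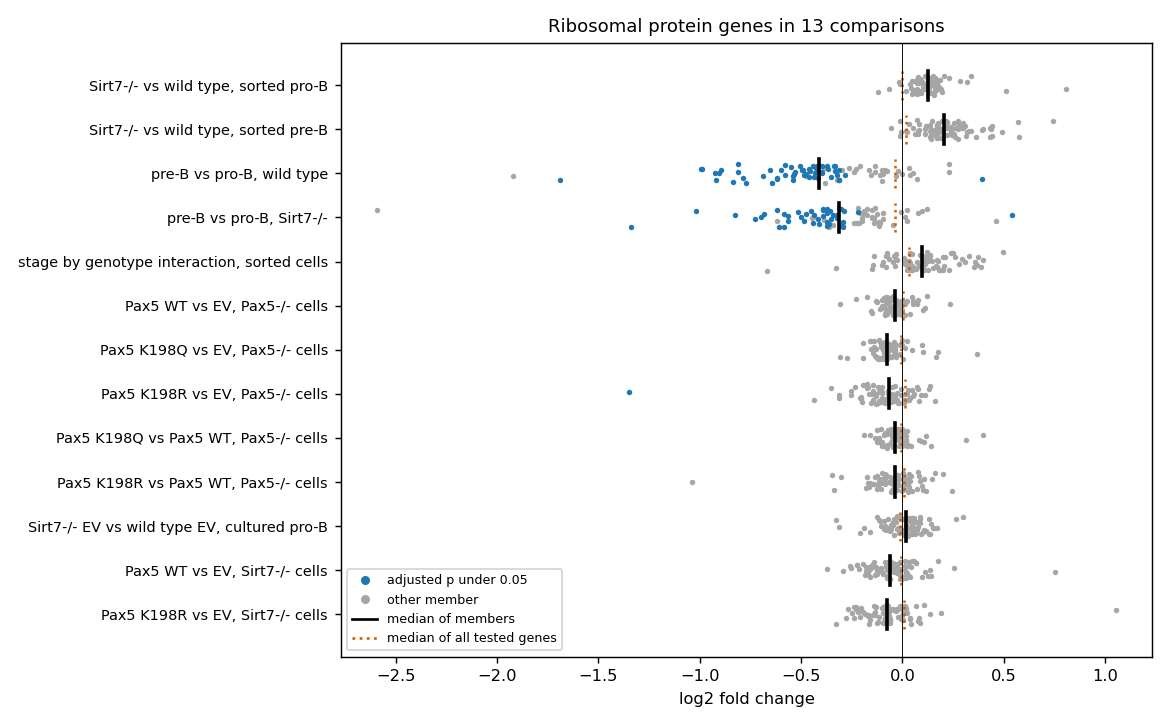
Log2 fold change (x axis) of every ribosomal protein gene (points) in the 13 comparisons (y axis), with the median of the members (bar), the median of all tested genes (dotted line) and members at an adjusted p under 0.05 in blue. The pre-B to pro-B comparisons lie left of 0 with medians of -0.41 and -0.31, and the medians of the cultured comparisons lie between -0.08 and 0.02.

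Pax5 peaks were looked up near the GENCODE M21 starts of 83 members, 81 of them annotated as protein coding. A peak summit within 1 kb of an annotated start was found in both Pax5 WT lists for 13 members (15.7%), where 19.2% of all protein-coding genes had one, and 32.1% of the other coding genes that were tested in Pax5-/- cells. With K198Q it was 3 members (3.61%, against 6.58% and 11.2%), and with K198R 22 members (26.5%, against 23.0% and 38.6%). The lists differ in size: 10646 and 11830 peaks with Pax5 WT, 3750 and 3957 with K198Q and 12158 and 13997 with K198R. With summits up to 5 kb away the counts were 22 with Pax5 WT (26.5% of members, against 23.0% of coding and 37% of other tested genes), 6 with K198Q (7.23%, against 8.09% and 13.4%) and 30 with K198R (36.1%, against 27.0% and 43.8%). With peaks at a −log10 q of at least 5 and within 1 kb, K198R was left with 14 members (16.9%, against 18.8% and 31.8%). The share of members lay below that of the other tested genes in each of these, while its order against all coding genes turned with the distance for Pax5 WT and with the q for K198R.

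Among the 13 members with Pax5 WT were Rpl10a, Rpl13, Rpl22, Rpl30, Rpl37, Rps2, Rps10, Rps15, Rps19, Rps21, Rps24 and Rps27l. Leaving out Rps2, their fold enrichment over input with Pax5 WT ran from 2.86 to 8.84. Rps2, Rps10 and Rps24 had a peak in all 6 lists, as did 6.34% of all protein-coding genes. Rps2 had the highest value of all members with Pax5 WT, 14.5 and 19.4, against 9.71 and 6.02 with K198Q and 10.4 and 14.2 with K198R, and its 6 summits lay 98 to 176 bases before the start. At Rps10 the fold enrichment was 6.28 and 8.78 with Pax5 WT, 6.46 and 6.02 with K198Q and 10.7 and 10.9 with K198R. At Rps24 it was 4.94 and 7.26, 10.1 and 5.76, and 4.63 and 15.6, where 1 Pax5 WT and 1 K198R summit lay at another annotated start. With 2 replicates a form, and with Pax5 levels that differ between the forms, these values were not tested.

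The sequence under the summit is shown for Rps2, whose mRNA fell the most among the members called in pre-B cells and whose peak was the highest among members with Pax5 WT, and for Rps10, which also had a peak in every list. Each run holds 60 bases around the summit of the second Pax5 WT replicate on the coding strand of the gene (GRCm38), and capitals mark the summit and 5 bases on either side.
Rps2 (chr17:24719864-24719923, plus strand): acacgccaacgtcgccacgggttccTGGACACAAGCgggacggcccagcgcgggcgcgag
Rps10 (chr17:27635354-27635413, minus strand): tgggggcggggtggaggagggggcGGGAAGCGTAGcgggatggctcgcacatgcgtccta
Both are rich in G and C (73.3% and 71.7% of the bases).

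**Figure D5:**
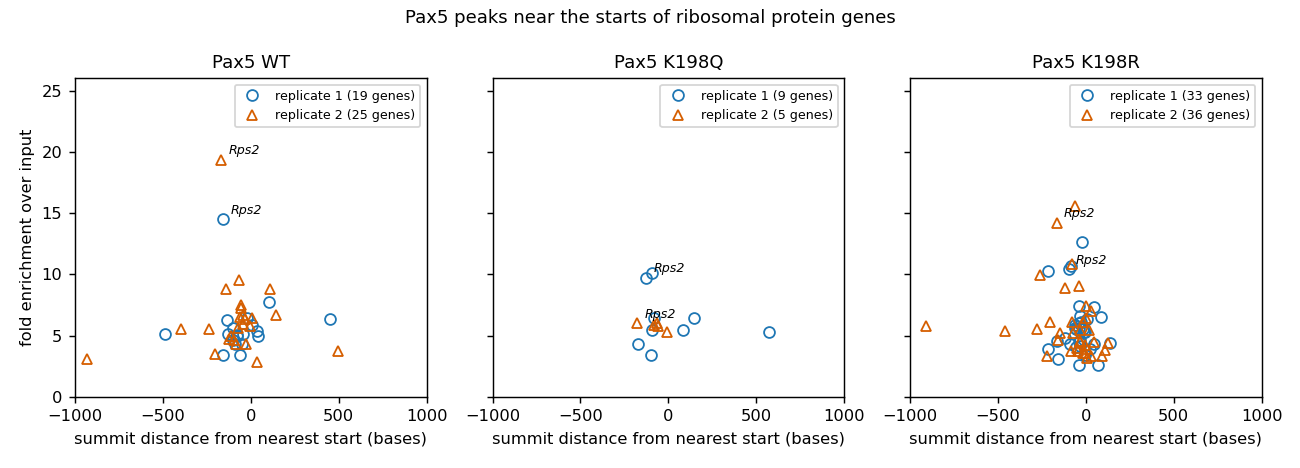
Fold enrichment over input (y axis) of Pax5 peaks against the distance of their summit from the nearest annotated start (x axis, in bases, negative before the start) at ribosomal protein genes, in 1 panel for each Pax5 form, with circles for replicate 1 and triangles for replicate 2. Summits gather just before the start, K198Q has the fewest genes, and Rps2 stands highest with Pax5 WT.

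The change from pro-B to pre-B cells was also split by the presence of a Pax5 peak. In wild-type sorted cells the median was -0.41 for the 13 members with a peak in both Pax5 WT lists and -0.42 for the other 70. At an adjusted p under 0.05 by limma 11 of the 13 and 44 of the 70 were called lower, where 22% of all genes were. The peaks come from cultured Pax5-/- cells with added Pax5 and the expression from sorted cells, and the medians were not tested against each other.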

How the data were processed

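RNA-seq libraries were made from poly(A) RNA, and per the labels and the study's methods the authors quantified reads with Salmon and deposited counts normalized with DESeq2 by its median-of-ratios method (a signal, not raw counts). Dividing each sorted library by 1 step returned whole reads for 100% of its values, 50004800 to 55536600 reads each; the cultured tables gave no common step, so their depth is unknown. For ChIP–seq (mm10) the authors aligned with Bowtie2 and called peaks over input with MACS2 per replicate; the deposited lists give fold enrichment, a ratio, and −log10 q. The peak names inside the second K198R list carry another replicate number, and it was used as replicate 2.

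Rows that reached 10 normalized counts in 2 or more of the 8 libraries were fitted on log2(normalized count + 1), which understates the change of low genes, with limma 3.58.1 (R 4.3.3), 4 groups in 1 fit, a variance trend and Benjamini-Hochberg adjustment (called at 0.05). edgeR 4.0.16 and DESeq2 1.42.0 were run on the recovered reads as alternatives. With 2 libraries a group an exact permutation test of 1 gene cannot go below a p of 0.333. Sorted libraries were paired by the number that their labels share between stages, taken as the mouse (correlation of deviations 0.08 in wild-type and 0.16 in Sirt7-/- mice). With the mouse as a block 57 members were called in wild-type and 41 in Sirt7-/- mice. Without the block 57 and 42 were, where 40.2% and 35.7% of all genes were called. The share of all genes called with the block is not given, so only the number of members is compared between these fits.

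The members and gene lists were chosen with earlier results of these data known. Named were members called with the largest changes, fixed paralog pairs and well-known members, those with extreme levels per length, those 0.5 or more from the median of the members, and fixed genes of each list. Per-length levels use the principal transcript of GENCODE M21. A Pax5 peak was counted where its summit lay within 1 kb of an annotated start. The nearest such peak was taken. Set tests were not run. A few genes of these lists are not reported here by name. Alternatives were pseudocount, low-value filter, scaling, variance trend, samples in the fit, replicate block, each library left out, edgeR and DESeq2, peak distance and peak significance.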

Additional observations from a re-analysis of the deposited data

Results flagged for a closer look

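Members whose libraries moved in opposite directions without overlap under the same contrast in different cells are given here as values, and these differences were not tested. Pax5 WT over EV gave Rpl13a a log2 fold change of -0.089 in Pax5-/- and 0.06 in Sirt7-/- cells, and Rpl3l -0.31 and 0.75. K198R over EV gave Rpl39 -0.21 in Pax5-/- and 0.08 in Sirt7-/- cells, and Rpl3l -1.35 and 1.05. Sirt7-/- over wild type gave Rpl13a 0.17 in sorted pro-B and -0.19 in cultured cells with EV, Rpl39 0.082 and -0.092, and Rps19 0.18 and -0.21. Sirt7-/- over wild type in sorted pre-B cells gave Rpl39 0.22 and Rps19 0.24 against the same -0.092 and -0.21. These are the named members among those with such a pattern. It was shown by 3 of 83 members (3.61%) for Pax5 WT and for K198R over EV, where 9.97% and 14% of all genes tested in both tables showed it, and by 5 of 83 (6.02%) for sorted pro-B and for sorted pre-B cells against cultured cells, where 6.7% and 7.41% of all genes did. Rpl3l was at or under 101 normalized counts in every cultured library. The values given here for the other members are small, between -0.21 and 0.24.

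Rows named as ribosomal protein pseudogenes, which no comparison above uses, carried counts in every library. They took at least 0.0961% and at most 0.182% of the normalized counts in sorted cells, 0.220% to 0.277% in Pax5-/- cells and 0.446% to 0.507% in the last table.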

How the results depend on the processing

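No called log2 fold change of a named member changed sign under any alternative. In wild-type mice the median stage change was -0.41, -0.50 with libraries scaled to the same sum and -0.53 with quantile normalization, where the median of all genes moved from -0.04 to -0.12 and 0.08. In Sirt7-/- mice it was -0.31, -0.41 and -0.42 in the same order. Leaving out 1 library at a time gave between 31 and 47 members called in wild-type (background 26.6% to 29.7%) and between 18 and 34 in Sirt7-/- mice (21% to 33.1%). In Sirt7-/- mice 22 were called with no variance trend (background 30.5%), 27 with only the groups compared in the fit (26.5%) and, in alternatives chosen after seeing the data, 10 without the mouse KO.8, the one with the haemoglobin RNA (20.5%), and 8 without the other mouse, KO.11 (8.94%). In all other alternatives between 38 and 65 were called in wild-type (25.5% to 44.3%) and between 35 and 62 in Sirt7-/- mice (21.9% to 39.7%). In pre-B cells DESeq2 called 9 members between genotypes (background 4.88%), where limma and edgeR called 0. The fall of this count without the mouse KO.8 is given with the result above.

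The replicate numbers of the cultured tables are not shown to pair the libraries, since the methods say only that replicates were made on different days; deviations of libraries with the same number correlated at 0.264 to 0.383 in Pax5-/- cells and 0.156 to 0.428 in the last table. With the number as a replicate block, K198R over EV called 5 members in Pax5-/- cells (background 21.2%) and 1 in Sirt7-/- cells (background 11.6%), and K198R over Pax5 WT called 2 (background 7.52%). For the stage the replicate block by number, in place of the mouse, gave 61 members in wild-type (background 44.3%) and 45 in Sirt7-/- mice (39.7%). K198R over EV in Pax5-/- cells called 1 member in the main fit (background 9.92%). With libraries scaled to the same sum 2 were called, and 0 with only the groups compared. The share of all genes called in these fits is not given, so neither count is set against a background. The call was also lost without some single libraries, as given above for Rpl3l.

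Adding the pseudogene rows raised the mean share of the members to 4.10% and 4.46% at the pro-B stage (wild-type, then Sirt7-/-), 3.38% in Sirt7-/- pre-B cells, 8.41% in Pax5-/- cells with K198R, and 6.68%, 6.83%, 6.81% and 6.67% in the last table (wild-type EV, then Sirt7-/- with EV, Pax5 WT and K198R). The K198R and EV libraries of Sirt7-/- cells then overlapped (6.7084% in K198R replicate 1, 6.7076% in EV replicate 1). Leaving the 10 most abundant other genes out of the total gave 4.29%, 4.65%, 3.09% and 3.57% (wild-type and Sirt7-/- pro-B, then pre-B), 9.18%, 9.09%, 8.90% and 8.72% in Pax5-/- cells (EV, Pax5 WT, K198Q, K198R) and 6.60%, 6.76%, 6.75% and 6.59% in the last table. Peaks in both lists within 5 kb were found at 22 members with Pax5 WT (26.5%, against 23.0% of coding genes, where the order was the opposite within 1 kb) and 6 with K198Q (7.23% against 8.09%), and at a −log10 q of at least 5 at 14 with K198R (16.9% against 18.8%, the opposite order to that without this threshold). Depth is known for the sorted libraries alone, and 2 libraries a group limit every comparison.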
